A study of Homo sapiens with 3 samples.

Results

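The cytosolic ribosomal protein genes were described across RNA-seq libraries of PANC-1, a widely used cell line from a human pancreatic tumour. Members were the rows of the count table named RPL or RPS with a number, with or without the letter A, X or L after it, together with RPLP0, RPLP1, RPLP2 and RPSA. Rows named as pseudogenes were left out. The rule found 81 of 51136 rows, 49 of the large subunit and 32 of the small subunit.

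The series compared 3 libraries of total RNA sequenced by the Ion Proton protocol, 1 from PANC-1 cells with no agent, 1 from cells treated with 200 μM ginsenoside Rg3 (a ginseng saponin) for 24 h, and 1 from cells treated with 50 μM tamoxifen (TAM, an oestrogen receptor modulator also used as an inhibitor of protein kinase C) for 24 h. The labels name no dose, time or vehicle for the control cells. With 1 library per condition no difference had a replicate check, and a treatment cannot be told apart from the culture or library behind it. Sequencing gave 11300766 (control), 12861693 (Rg3) and 11321442 (TAM) counted reads. Of the epithelial keratins that mark the line, KRT8 had 15329, 7817 and 14411 counts in these libraries and KRT18 had 11216, 7406 and 13162, and KRT19, of ductal epithelium, had 665, 290 and 181, while the leukocyte gene PTPRC had at most 1 count.

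Ribosomes are built from a small (40S) subunit, which decodes the mRNA, and a large (60S) subunit, which joins amino acids. Each subunit holds ribosomal RNA and a set of ribosomal proteins, mostly present as a single copy per ribosome, so that their genes are expressed at high and similar levels in growing cells. Many of these mRNAs start with a C and a run of pyrimidines, the TOP motif, through which mTOR signalling controls their translation. Ribosomal protein mRNAs have also been copied back into the genome many times, which left more processed pseudogenes than for most gene families.

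The annotated starts of the genes carried this pyrimidine run. RefSeq promoter sequences (GRCh38.p14, 250 bases before to 50 after the start) were found for 64 of the 81 members. In 42 of these 64 (65.6%), the annotated start was a C followed by at least 4 pyrimidines, against 4.07% of 35116 promoters in the table. The run was found at the start of 25 of 39 large subunit genes and 17 of 25 small subunit genes. A run of at least 5 pyrimidines led by a C within 10 bases of the start was found in 55 of the 64 (85.9%), against 33.5% of all promoters. The letters CCGGAAG, the core that ETS factors such as GABPA bind, were found on either strand in 22 of the 64 (34.4%), against 10.3%. TATAAA, the letters of a TATA box, was found on either strand in 6 (9.38%), against 11.5%. A promoter could hold more than 1 of these motifs.

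The windows below run from 40 bases before the start to 20 bases from it. They belong to some of the members that stood at an end of a comparison or of the range of levels. Capitals mark the longest pyrimidine run led by a C within 10 bases of the start. Of such members not printed, RPL17 had no such run, and RPL3 and RPS15 did not start with a C followed by at least 4 pyrimidines. RPS27 and RPL41, also not printed, did. RPS16 lies on the minus strand at chr19:39435930-39435989, RPL39 on the minus strand at chrX:119791611-119791670, RPS13 on the minus strand at chr11:17077648-17077707, RPS3A on the plus strand at chr4:151099588-151099647, RPL7A on the plus strand at chr9:133348178-133348237, RPS3 on the plus strand at chr11:75399478-75399537 and RPLP1 on the plus strand at chr15:69452778-69452837. RPS29, on the minus strand at chr14:49598691-49598750, and RPS27L, on the minus strand at chr15:63157458-63157517, had no such run within 10 bases of the start. Pyrimidine runs further from the start are left in small letters.
RPS16: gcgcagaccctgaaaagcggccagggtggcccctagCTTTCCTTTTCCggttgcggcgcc
RPL39: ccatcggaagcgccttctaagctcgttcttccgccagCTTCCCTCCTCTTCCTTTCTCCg
RPS13: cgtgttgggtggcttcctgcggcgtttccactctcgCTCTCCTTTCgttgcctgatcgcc
RPS3A: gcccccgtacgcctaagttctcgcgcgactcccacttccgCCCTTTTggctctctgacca
RPL7A: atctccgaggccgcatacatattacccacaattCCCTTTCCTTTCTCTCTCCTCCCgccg
RPS3: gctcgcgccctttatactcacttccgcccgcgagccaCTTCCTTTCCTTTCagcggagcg
RPLP1: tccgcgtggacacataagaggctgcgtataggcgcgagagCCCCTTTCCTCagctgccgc
RPS29: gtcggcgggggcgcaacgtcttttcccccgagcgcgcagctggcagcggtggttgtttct
RPS27L: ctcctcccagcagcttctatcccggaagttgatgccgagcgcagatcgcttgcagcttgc

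Reads counted on the 81 genes made up 7.35% of all counted reads in the control library (exact Clopper-Pearson 95% interval 7.33 to 7.36%), 7.16% with Rg3 (7.15 to 7.18%) and 8.04% with TAM (8.02 to 8.06%). These intervals, and all others given here, cover counting error only. In bulk RNA, a change in the number of cells of a kind and a change in RNA per cell cannot be told apart. The rank of the TAM library above the control library was also seen without RPS16, the most abundant member, where the shares were 5.68%, 5.85% and 6.63%, while the Rg3 library then lay above the control library instead of below it. The step without RPS16 was chosen after its count was seen.

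Levels are given as reads per kilobase of coding sequence and 1000000 counted reads, so that genes of different length can be compared. The median over the 79 members with at least 50 counts in a library was 1390 in the control library, with a median of 1389 for the large subunit and 1410 for the small subunit. The quartiles were 569 and 2046. Of the 80 pairs of neighbours in the order of levels, 55 had overlapping counting intervals, so that their order was not resolved at this depth.

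**Figure D1:**
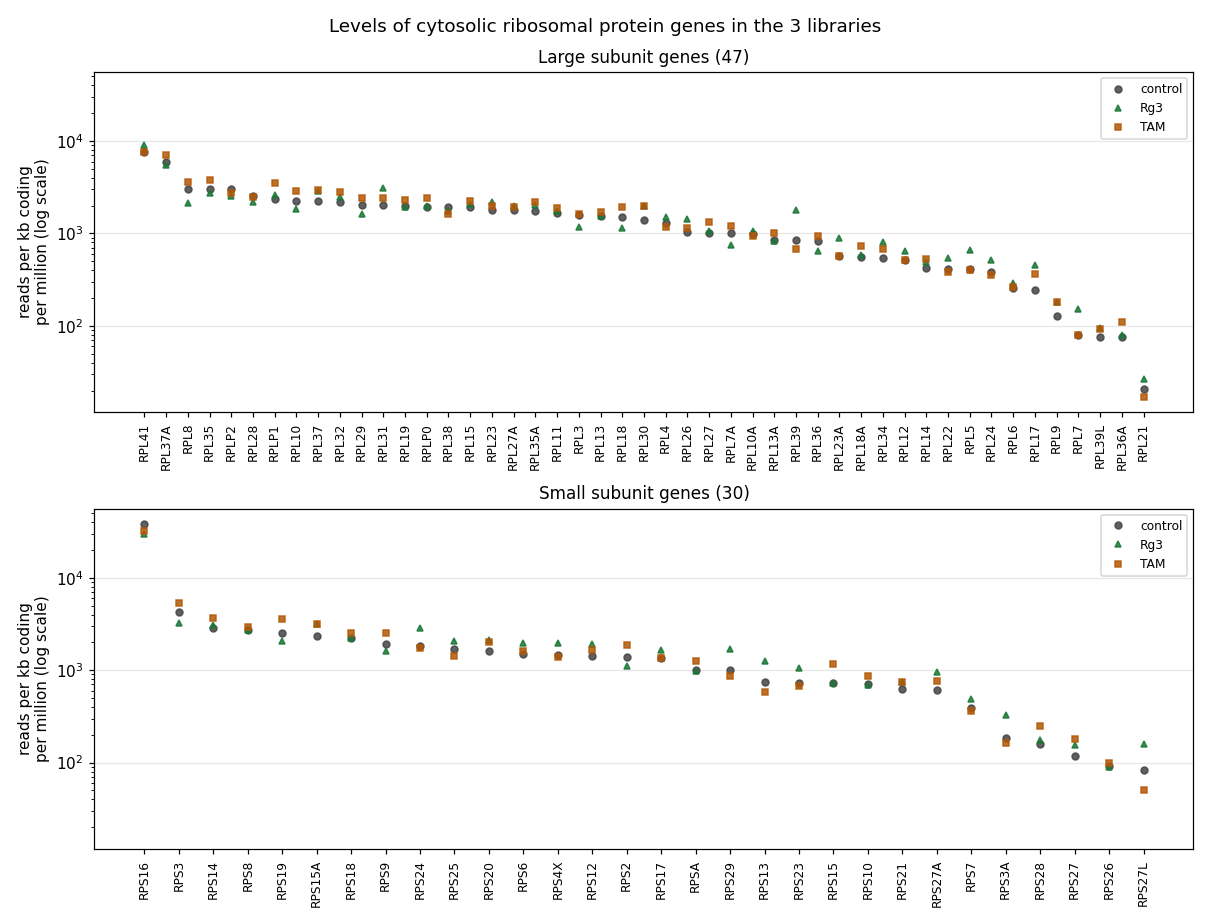
Level of 77 of the 79 compared ribosomal protein genes, in reads per kilobase of coding sequence and 1000000 counted reads on a log axis, with the large subunit above and the small subunit below and genes ordered by the control library. Circles are control, triangles Rg3 and squares TAM, with 1 library each. RPS16 lies at 38100 in the control library, far above the other members, and RPL21 is lowest at 20.8.

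RPS16, a protein of the head of the small subunit, stood apart from the other members. Its row held 188583 control, 169335 Rg3 and 159884 TAM counts, the highest of all rows of the table in each library. The row next to it in the control library held 84159 counts. Per coding length its level was 38100 in the control library, 4.99 times that of the next member and 27.4 times the median of the members. Of all member reads, RPS16 took 22.7% (control), 18.4% (Rg3) and 17.6% (TAM). The member next in order was RPL41 at 7637, whose coding sequence of 75 bases is the shortest of all and makes a value per coding length unreliable.

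Other genes at the upper end were RPL37A, a zinc-binding protein of the large subunit, at 5888, and RPS3, which lines the mRNA entry channel, at 4243. RPL8, RPL35 and RPLP2, at 3002, 2999 and 2994, had overlapping counting intervals. At the lower end lay RPS27L at 82.5, RPL7 at 80.3, RPL39L at 76.3, RPL36A at 75.97 and RPL21 at 20.8. RPS27L, RPL7, RPL39L and RPL36A had intervals that overlapped that of a neighbour in the order. Among these genes, RPS27L and RPL39L are second copies of RPS27 and RPL39 with a restricted or regulated expression, while RPL7, RPL36A and RPL21 encode standard proteins of the large subunit.

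The position of RPS16 was examined after its level was seen. RPS16 lies at chr19:39433207-39435948 (GRCh38, GENCODE 29). Within 1 Mb on either side were 58 other coding genes, of which 41 had at least 10 counts in the control library. Their median level was 107, against 15.6 for the 11686 coding genes with at least 10 counts in the whole table. The 90th percentile of those 11686 genes was 139, and 20 of the 41 neighbours lay above it. They included FBL, the methyltransferase of ribosomal RNA, at 5734, the kinase gene AKT2 at 2209, the proteasome gene PSMC4 at 2087 and MED29 at 1416. PANC-1 is known for a copy gain of this region around AKT2. Copy number was not measured here, and its part in the level of RPS16 was not tested.

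**Figure D2:**
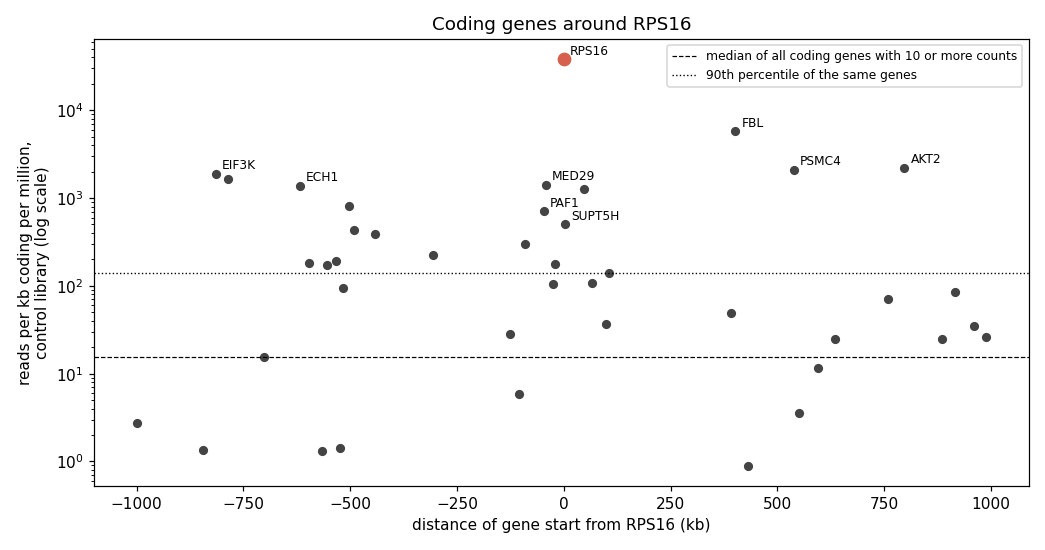
Level of the 41 coding genes with at least 10 counts within 1 Mb of RPS16, and of RPS16 itself in red, in reads per kilobase of coding sequence and 1000000 counted reads in the control library (log axis), against the distance of the gene start from RPS16 in kb. The dashed line is the median of all coding genes with at least 10 counts (15.6) and the dotted line their 90th percentile (139), and 20 of the neighbours lie above the dotted line.

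The low rows were mostly those of genes with near-identical pseudogenes. The count table holds 1886 rows named as a pseudogene of a member, for 77 of the 81 genes, and 1291 of them had a read. These rows held 436804 counts (control), 502722 (Rg3) and 488233 (TAM), or 34.5%, 35.3% and 34.9% of the reads on members and pseudogenes together. How the authors counted reads that fit several places is not given in the sources used here, so that the split of reads between a member and its pseudogenes is uncertain.

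For a median of 45.3% of the coding sequence, taken as stretches of 50 bases, a member was identical to an annotated pseudogene in GENCODE 29. In 37 members more than 50% of the stretches were shared. Every stretch was shared in 8 members, RPL21, RPL36A, RPL39, RPL41, RPS10, RPS26, RPS27 and RPS28. No stretch was shared in 4 members, RPL38, RPL39L, RPL3L and RPS27L. The 21 compared members with under 20% shared had a median level of 1926 in the control library, and the 20 with over 80% shared had 324. Across the 79 members, which come from the same library, level and shared part had a Spearman's rho of -0.48.

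The pseudogene rows took the largest part of the reads for RPL21, with 97.2% of the reads on member and pseudogenes in the control library, RPL36A with 95.01%, RPS26 with 94.7%, RPS27 with 93.7% and RPL9 with 90.6%. RPL21 had 113 counts against 3992 on its 136 pseudogene rows. RPS26 encodes a protein of the mRNA exit channel and is one of the genes mutated in Diamond-Blackfan anaemia. In 27 members the pseudogene rows together held more reads than the gene. The pseudogene row with the most reads was RPS2P5, with 20888 counts (control), 19740 (Rg3) and 36023 (TAM), where RPS2 itself had 13808, 12447 and 18595.

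**Figure D3:**
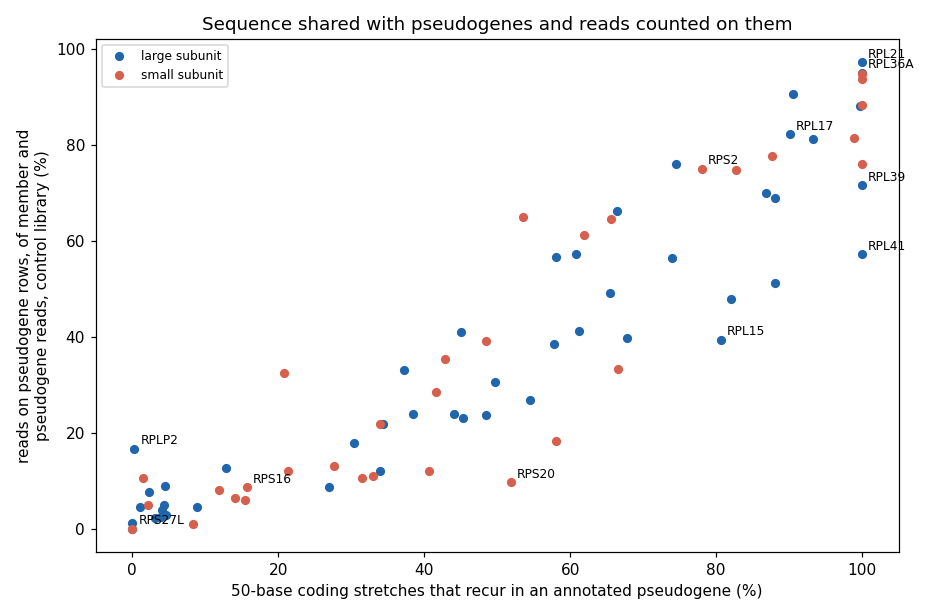
Share of the reads on a member and its pseudogene rows that were counted on the pseudogene rows (%, control library) against the share of 50-base stretches of the coding sequence that recur in an annotated pseudogene (%). Each point is 1 of 79 members, blue for the large and red for the small subunit. Points run from 0% for RPS27L to 97.2% for RPL21 and rise with the shared part.

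RPL39 and its second copy RPL39L, and RPS27 and RPS27L, show how far the reads of close relatives can be separated. The sequences are the coding sequences of GENCODE 29 (GRCh38) without the stop codon, and capitals in the second copy mark bases that differ from the first. RPL39 lies on the minus strand at chrX:119786504-119791643 and RPL39L on the minus strand at chr3:187120948-187180908. They differ at 8 of 153 bases and share no run of 50 bases. The pseudogene RPL39P3 on chromosome 6 is identical to RPL39 over all 153 bases and is therefore not printed. RPS27 lies on the plus strand at chr1:153990755-153992155 and RPS27L on the minus strand at chr15:63125872-63158021, and they differ at 56 of 252 bases.
RPL39: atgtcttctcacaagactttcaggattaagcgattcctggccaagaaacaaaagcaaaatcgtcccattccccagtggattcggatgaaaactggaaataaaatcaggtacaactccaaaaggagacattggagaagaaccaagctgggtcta
RPL39L: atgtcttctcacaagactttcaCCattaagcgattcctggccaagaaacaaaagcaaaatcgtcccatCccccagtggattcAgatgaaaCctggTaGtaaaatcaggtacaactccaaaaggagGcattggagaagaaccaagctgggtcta
RPS27: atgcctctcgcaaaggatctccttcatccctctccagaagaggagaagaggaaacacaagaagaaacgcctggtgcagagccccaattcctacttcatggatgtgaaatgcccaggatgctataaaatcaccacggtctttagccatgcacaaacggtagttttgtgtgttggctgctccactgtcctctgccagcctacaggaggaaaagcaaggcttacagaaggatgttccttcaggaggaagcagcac
RPS27L: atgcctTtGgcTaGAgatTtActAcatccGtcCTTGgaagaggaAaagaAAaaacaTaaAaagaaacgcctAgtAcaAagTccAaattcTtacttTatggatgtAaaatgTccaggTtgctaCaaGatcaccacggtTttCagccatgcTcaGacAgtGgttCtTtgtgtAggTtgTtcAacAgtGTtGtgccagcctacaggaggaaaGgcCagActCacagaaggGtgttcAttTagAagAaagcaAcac

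The comparison of the Rg3 library with the control library asked how the transcript profile differed after Rg3. Folds are ratios of counts scaled by edgeR's TMM factors, given as log2, where either of the compared libraries had at least 10 counts, and a gene was called higher or lower with a fold over 1.5 or under 0.67. RPL10L, with 2, 3 and 0 counts in the control, Rg3 and TAM libraries, and RPL3L, with 5, 0 and 0, could not be compared. They are the testis and the muscle copies of RPL10 and RPL3. A count of 0 allows up to 3 counts.

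With Rg3, the ribosomal protein genes did not move as a block. The median log2 fold over 79 members was 0.05, against 0.04 over all 16487 genes compared. Of the 79, 42 lay above 0 and 37 below. The call was higher in 7 members (8.86%), where 25% of all genes were called higher, and lower in 1 (1.27%), where 19.5% of all genes were. The members ranged from -0.63 to 0.94. Relative to library totals, TMM scaling shifted every log2 fold by -0.14 for Rg3 and by 0.21 for TAM, so that values between -0.14 and 0 with Rg3 and between 0 and 0.21 with TAM take the other sign under library totals. Under library totals the median with Rg3 was 0.19, 52 of 79 members lay above 0, 12 were called higher and 0 lower. The shares of all genes called hold for TMM scaling only.

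RPL39 was the highest. It lines the exit tunnel of the large subunit, and had 1464 counts (control), 3522 (Rg3) and 1166 (TAM), a log2 fold of 0.94 with Rg3 (95% counting interval 0.85 to 1.03). RPS27L had 235, 512 and 146 counts, a log2 fold of 0.80 with Rg3 (0.57 to 1.03). RPL7, a large subunit protein, had 675, 1469 and 667 counts and a log2 fold of 0.80 (0.66 to 0.93). In RPL39, RPS27L and RPL7 the Rg3 library stood above both others, as counted and after scaling.

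RPL17, at the rim of the exit tunnel, had 1512, 3247 and 2298 counts in the control, Rg3 and TAM libraries, a log2 fold of 0.78 with Rg3 (0.69 to 0.87). Its exons are shared with the read-through gene RPL17-C18orf32, and 82.2% of the reads on RPL17 and its pseudogenes lay on pseudogene rows in the control library. With those rows added, the log2 fold of RPL17 was 0.32 with Rg3 and 0.25 with TAM, under the fold limit in both. RPS3A, on the platform of the small subunit, had 1651, 3375 and 1454 counts, a log2 fold of 0.70 (0.62 to 0.79). RPS13, which contacts the large subunit, had 3823, 7287 and 2957 counts, a log2 fold of 0.60 (0.55 to 0.66). Exons of PIK3C2A overlap those of RPS13 on the same strand. How reads in the overlap were counted is not given in the sources used here. The last gene called higher was RPS29, a small zinc-binding protein, with 1913, 3617 and 1634 counts and a log2 fold of 0.59 (0.51 to 0.67). With pseudogene rows added, RPL7 (0.54), RPS13 (0.52) and RPS29 (0.54) were also under the limit, while RPL39 (0.66), RPS3A (0.60) and RPS27L (0.80) were above it.

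At the other end, RPL8, next to the peptidyl transferase centre, had 26157, 21248 and 31799 counts and was the 1 member called lower with Rg3, by -0.63 (-0.65 to -0.60). RPL7A was just above the limit at -0.57 (-0.62 to -0.53), from 9136 to 7689 counts. RPL3, also near the peptidyl transferase centre, had a log2 fold of -0.55 from 21534 to 18418 counts. RPS3 had -0.53 from 34953 to 30322, RPL18 -0.51 from 9544 to 8397 and RPL36 -0.50 from 2975 to 2632. RPL8, RPL7A, RPL3, RPS3, RPL18 and RPL36 had their lowest count in the Rg3 library and their highest in the TAM library.

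**Figure D4:**
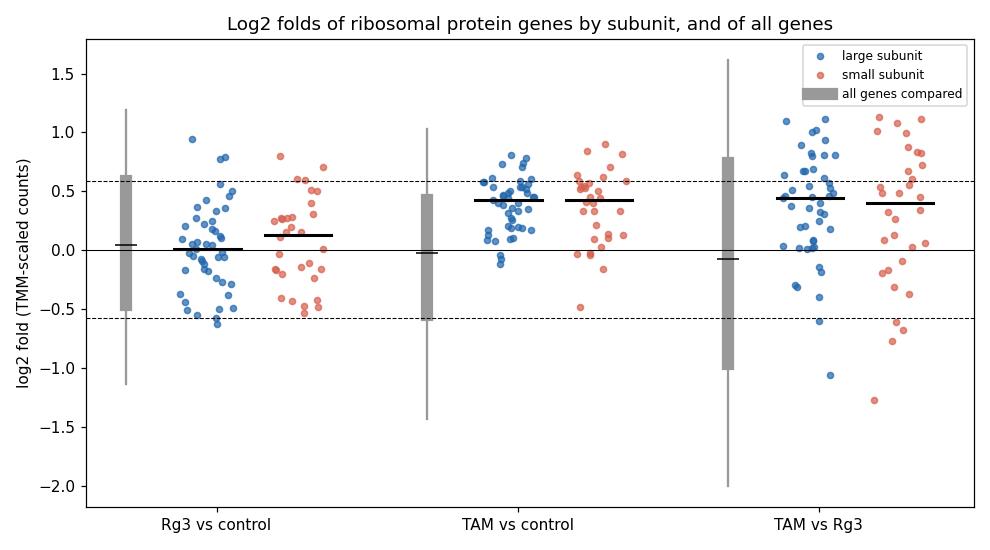
Log2 folds of TMM-scaled counts for the 47 large (blue) and 32 small (red) subunit genes compared, each point 1 gene with a black line at the median, beside all genes compared in grey (thick bar between the quartiles, thin bar the middle 90%, dash the median). Dashed lines mark folds of 1.5 and 0.67. Under this scaling members lie evenly around 0 with Rg3 (median 0.05) and mostly above 0 with TAM (median 0.43). Under library totals 52 members lie above 0 with Rg3 and 55 with TAM.

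The order of the members with Rg3 followed the GC content of their coding sequence. Across the 79 members Spearman's rho between GC content and log2 fold was -0.81, and across 10359 other coding genes of the same libraries it was -0.80. The 26 members of lowest GC content (42.1 to 47.5%) had a median log2 fold of 0.36 and held 6 of the 7 genes called higher. Other coding genes in that range of GC, no longer than the longest member (1281 bases), had a median of 0.56. In the 26 members of highest GC content (54.2 to 63.0%) the median was -0.32, and in other such genes -0.38. The 27 members between them had 0.07, against 0.11. When a smooth trend on coding GC content and length, fitted over all coding genes, was subtracted, the SD of the member folds went from 0.37 to 0.22 and their median was -0.05. With the trend removed, RPS29 (0.59) was called higher and RPL38 (-0.66) lower, where 1201 and 912 of 11969 genes were. RPL39 was then at 0.35 and RPL8 at -0.13. Whether the relation with GC content arose in the cells or in library preparation was not tested.

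**Figure D5:**
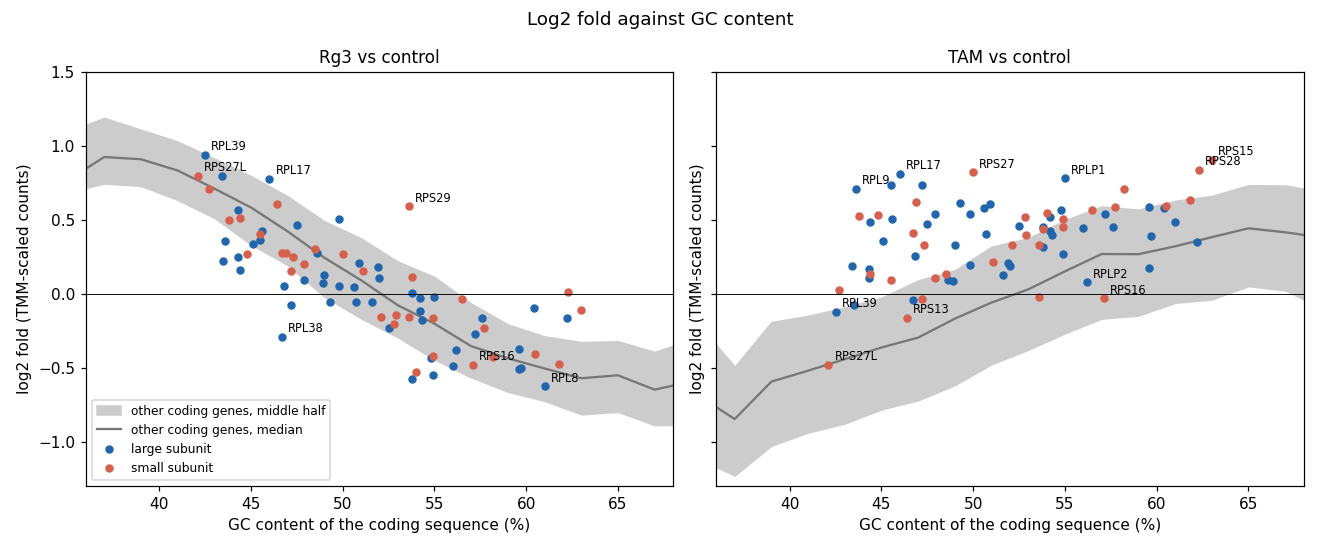
Log2 fold of TMM-scaled counts against GC content of the coding sequence (%), for Rg3 on the left and TAM on the right. Points are the 79 members (blue large, red small subunit), the grey line is the median of other coding genes in bins of 2% GC and the band runs between their quartiles. With Rg3 the members follow the falling line of other genes, while with TAM members of low GC content lie above it.

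The comparison of the TAM library with the control library asked the same of tamoxifen. Here most members lay above the control library. The median log2 fold was 0.43, against -0.02 over all 16079 genes compared, and 71 of 79 members were above 0. The call was higher in 16 members (20.3%), where 17.4% of all genes were called higher, and lower in none, where 23.8% of all genes were. The range ran from -0.48 to 0.90. Scaled by library totals alone, the median was 0.22 and 55 of 79 members were above 0. Then 4 were called higher and 1, RPS27L at -0.69, was called lower, while the shares of all genes hold for TMM scaling only.

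RPS15, in the head of the small subunit near the decoding site, was the highest, with 3538 counts (control), 4110 (Rg3) and 5740 (TAM), a log2 fold of 0.90 with TAM (95% counting interval 0.84 to 0.97). RPS28, near the mRNA exit, had 372, 469 and 577 counts and a log2 fold of 0.84 (0.65 to 1.03). RPS27, a zinc-finger protein of the small subunit, had 334, 504 and 511 counts, a log2 fold of 0.82 (0.62 to 1.02). RPS28 and RPS27 are among the genes whose coding stretches were all shared with pseudogenes.

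Of the large subunit, RPL17, whose call ended with pseudogene rows added, had a log2 fold of 0.81 with TAM (0.72 to 0.91), RPLP1 one of 0.78 (0.74 to 0.82), from 9171 to 13639 counts, and RPL30 one of 0.74 (0.69 to 0.79), from 5414 to 7822. RPL30 contacts the small subunit at an intersubunit bridge. Others called higher with TAM, named by the call, included RPL36A, RPL9, RPS19, RPS2, RPS15A, RPL27, RPL37, RPS9 and RPL18, with log2 folds from 0.59 to 0.73.

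Of the 8 members below 0 with TAM, RPS27L was lowest at -0.48 (-0.79 to -0.18) and RPS13 followed at -0.16 (-0.23 to -0.10). RPL39 was at -0.12 (-0.23 to -0.01) and RPL21 at -0.07 (-0.49 to 0.33). RPL38, on which translation of certain developmental mRNAs depends, was at -0.04 (-0.10 to 0.02), and RPS25, which internal ribosome entry sites of several viruses need, at -0.04 (-0.09 to 0.01). None of these was called lower under TMM scaling, and the intervals of RPL21, RPL38 and RPS25 covered 0. RPS16 was at -0.03 (-0.04 to -0.02) with TAM and at -0.48 (-0.49 to -0.47) with Rg3.

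Other abundant genes of like length had a median close to that of the members with TAM. Over 1058 other coding genes of at most 1281 bases and a mean of at least 1000 counts, the median log2 fold with TAM was 0.41, and 30.4% were called higher and 2.65% lower. With Rg3 the same genes had a median of -0.26, below that of the members (0.05). With the GC and length trend removed, the medians of these genes and of the members were -0.06 and -0.05 with Rg3. They were 0.16 and 0.15 with TAM. Within the members, GC content and log2 fold with TAM had a Spearman's rho of 0.35, against 0.48 over 9916 other coding genes. In the members of lowest, middle and highest GC content the medians were 0.29, 0.33 and 0.51, against -0.11, 0.18 and 0.43 in other coding genes of these ranges and at most 1281 bases. Subtraction of the GC and length trend left a median of 0.15, with an SD of the folds of 0.26 against 0.27 before. Then 3 members were called higher, RPL17 (0.79), RPL9 (0.78) and RPL30 (0.62), where 1399 of 11855 genes were.

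Directly compared, the TAM library lay above the Rg3 library with a median log2 fold of 0.44 over the members, against -0.08 over all 16493 genes. TMM scaling shifted this comparison by 0.35 relative to library totals, under which the member median was 0.10 and 43 of 79 members lay above 0. The call was higher with TAM in 26 members (32.9%), where 30% of all genes were, and lower in 6 (7.59%), where 35.4% were. The doses differed, with 200 μM Rg3 and 50 μM TAM, so that these values stand side by side and are no comparison at matched dose. RPS19, RPL8 and RPS2 were highest, at 1.13, 1.11 and 1.11. RPS27L (-1.28), RPL39 (-1.06), RPS13 (-0.77), RPS3A (-0.68), RPS29 (-0.61) and RPL7 (-0.61) were lower with TAM. Spearman's rho with GC content across the 79 members was 0.79, and with the trend removed the median was 0.17, while RPS3A (0.09) and RPL7 (0.07) took the other sign.

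The medians of the large and small subunit genes lay closer together than the genes within a subunit. With Rg3 the medians were 0.01 for 47 large subunit genes and 0.13 for 32 small subunit genes, a difference of -0.12, with quartiles of -0.20 and 0.23 and of -0.18 and 0.28. With TAM both medians were 0.43 and 0.42, with quartiles of 0.19 and 0.54 and of 0.12 and 0.57. With TAM, 8 of 47 large subunit genes and 8 of 32 small subunit genes were called higher, where 17.4% of all genes were. The large subunit share lay close to that of all genes, and the small subunit share lay above it. Both shares lay below the 30.4% of the 1058 other abundant coding genes of like length. With the GC and length trend removed, 3 large and 0 small subunit genes were called higher with TAM, so that the order of the subunits turned. The medians were then 0.15 and 0.16. The large subunit took 44.2% (control), 46.0% (Rg3) and 46.5% (TAM) of member reads. Without RPS16 these shares were 57.2%, 56.4% and 56.4%, so that the order of the libraries turned.

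The proteins of the stalk, which recruits translation factors to the large subunit, differed among themselves. RPLP0, the base of the stalk, had 20815, 24060 and 25884 counts in the control, Rg3 and TAM libraries, and log2 folds of -0.12 with Rg3 and 0.52 with TAM. RPLP1 had 9171, 11346 and 13639, at -0.02 and 0.78. RPLP2, the partner of RPLP1 in the stalk dimers, had 11671, 11222 and 10676, at -0.38 and 0.08. Against the control library, only RPLP1 with TAM passed the fold limit among these 3 genes. PIDD1 has exons on the strand opposite to RPLP2, and whether strand was used in counting is not given in the sources used here.

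RPL5 and RPL11 bind 5S ribosomal RNA and, when free of ribosomes, hold back MDM2, the ligase that degrades p53. RPL5 had 4117, 7646 and 4013 counts, log2 folds of 0.57 with Rg3 and 0.17 with TAM. RPL11 had 9980, 12023 and 11449 counts, at -0.06 and 0.40. Neither passed the fold limit in either comparison, and the partners of the 5S particle lay in the opposite order in the treated libraries. Their coding GC contents are 44.3% for RPL5 and 50.7% for RPL11, and with the trend removed they were at 0.03 and -0.14 with Rg3 and at 0.33 and 0.21 with TAM.

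In the exit tunnel, RPL4, whose long loop lines the constriction, had 18603, 24527 and 17135 counts and log2 folds of 0.07 with Rg3 and 0.09 with TAM, unlike RPL39 and RPL17 described above. RPS27A, made as a fusion with ubiquitin, had 3240, 5744 and 4044 counts, at 0.50 and 0.53. RPL39L had 132, 185 and 160 counts, at 0.16 (-0.17 to 0.49) with Rg3 and 0.48 (0.14 to 0.83) with TAM. Its interval with Rg3 covered 0, where RPL39 was at 0.94.

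RPS2, RPS3, RPS20 and RPSA, which shape the mRNA channel and the head of the small subunit, had a median log2 fold of -0.34 with Rg3 and 0.54 with TAM, with RPS2 (0.64) called higher with TAM. With Rg3 RPS20 was at 0.27, while RPS2 (-0.48), RPS3 (-0.53) and RPSA (-0.20) were below 0. With the GC and length trend removed, the medians were -0.16 with Rg3 and 0.30 with TAM. The 11 listed genes tied to Diamond-Blackfan anaemia, a failure of red cell production caused by loss of 1 copy of a ribosomal protein gene, had medians of 0.09 and 0.36. Of them, RPS19 was called higher with TAM at 0.71, from 12363 to 17471 counts. This was 1 of the 11 (9.09%), where 17.4% of all genes were called higher with TAM. None was called with Rg3, where 25% of all genes were called higher and 19.5% lower.

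Genes tied to the ribosome outside the rule were read beside the members. Over 20 other TOP mRNAs, mostly translation factors, the median log2 fold was 0.19 with Rg3, with 5 called higher and 1 lower, and 0.19 with TAM, with 2 higher and 0 lower. Over all genes, 25% were called higher and 19.5% lower with Rg3, and 17.4% and 23.8% with TAM. Over 46 ribosome assembly genes, 8 were higher and 12 lower with Rg3 (median 0.09) and 7 higher and 6 lower with TAM (median 0.19). Ribosomal proteins of mitochondria, a separate set of 77 genes, had a median of -0.11 with Rg3, with 13 higher and 9 lower, and 0.44 with TAM, with 28 higher and 1 lower. With the trend on GC and length removed, the medians with Rg3 and TAM were -0.07 and 0.22 for the other TOP mRNAs. They were -0.22 and 0.33 for the assembly genes and -0.02 and 0.26 for the mitochondrial set. Of the 46 assembly genes 0 were then called higher and 1 lower with Rg3, where 1201 and 912 of 11969 genes were. With TAM 6 were higher and 0 lower, where 1399 and 1838 of 11855 genes were. FAU, whose ribosomal part belongs to the small subunit and is fused to a ubiquitin-like protein, was at -0.39 with Rg3 and 0.62 with TAM.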

How the data were processed

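PANC-1 RNA-seq was measured in 3 libraries, 1 per condition, and grouped by the sample labels. The methods name FAST-QC, TopHat and MAQ, and the submitters' processing notes name GRCh38. The counting tool, annotation and use of strand are not given in the sources used here. The authors deposited raw read counts for 51136 gene symbols, without normalization. The members and gene lists were chosen with earlier results of these data known.

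From the deposited counts, TMM factors of 1.02 (control), 1.12 (Rg3) and 0.879 (TAM) were obtained with edgeR 4.0.16 under R 4.3.3, and log2 folds in Python 3.11.15. A gene entered with at least 10 counts in either library and called with a fold over 1.5 or under 0.67, the fold limits of the methods, whose Limma fit needs replicates. Counts under 3 were set to 3. Intervals are exact 95% Clopper-Pearson intervals, or exact Poisson intervals for single levels, and cover counting error only. No p-value is given, since a test on the reads of 2 libraries does not compare conditions.

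Coding GC content and length came from the principal transcript in GENCODE 29, found for 72.6% of genes compared with Rg3 and 73.7% with TAM, and for all 81 members. The trend was a loess fit (span 0.3) over coding genes with at least 50 counts. Members were named by a rule: the 6 highest and 6 lowest folds with Rg3 and with TAM, the 5 highest and 5 lowest levels, the 5 highest shares on pseudogene rows, members under 50 counts, and the stalk, 5S, tunnel, ubiquitin-fused and second-copy lists. Other members are named where a count or call turned on them, and the results of a few genes are not reported here. Alternatives were library totals, size factors from DESeq2 1.42.0, TMM without members, minimums of 1 and 50 counts, pseudogene rows added to members, the trend removed, and an added exact binomial test. The fold calls and counting intervals were tested on simulated Poisson counts with known library sizes. TMM scaling, the GC and length trend and the sharing with pseudogenes were not tested in this way.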

Additional observations from a re-analysis of the deposited data

How the results depend on the processing

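No paired analysis was possible because control, Rg3 and TAM hold a single library each, which also leaves none to omit. With library totals, the median log2 fold of the members was 0.19 with Rg3, 0.22 with TAM and 0.10 for TAM against Rg3. Then 12 members were called higher with Rg3 and 0 lower, against 4 and 1 with TAM. No share over all genes was taken under library totals, so these counts have no background beside them. With pseudogene rows added to their member, the medians were 0.37 with TAM and 0.39 for TAM against Rg3, the calls with Rg3 were 4 higher and 2 lower, and 10 members were higher with TAM. With the GC and length trend removed, the medians were -0.0485, 0.15 and 0.17, the count of higher members was 1 with Rg3 and 3 with TAM, and large minus small subunit was -0.0699 with Rg3 and -0.0107 with TAM. A minimum of 1 count gave -0.0095 for the last. Both that minimum and TMM without members gave 2 members lower with Rg3.

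The member share was 11.2%, 11.1% and 12.4% in the control, Rg3 and TAM libraries with pseudogene rows added, 7.58%, 7.34% and 8.23% without mitochondrial genome rows and 5.68%, 5.85% and 6.63% without RPS16. The large subunit share of member reads was 47.3%, 48.5% and 48.5% with pseudogenes, 60.1%, 58.5% and 59.5% without the 5 most abundant members and 57.2%, 56.4% and 56.4% without RPS16. The steps without RPS16 were chosen after seeing the data. The cause of these shifts was not tested beyond the construction of each step. DESeq2's size factors, a minimum of 50 counts and the added binomial test left every median and count of members within the limits set for a shift. With DESeq2's size factors 20 members were called higher with TAM, against 16 under TMM scaling, which counted as within these limits. No share over all genes was taken under DESeq2's size factors. Of 68 folds of named members against the control library, 33 left their counting interval with pseudogenes added, 57 with the trend removed, 56 with library totals, 8 with DESeq2's size factors and 1 with TMM without members, and no called fold changed sign. Counting error limits the rows of RPL21, RPL39L, RPS27L, RPS26 and RPL36A.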

Other observations

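Values that were in no comparison above concern single pseudogene rows. RPL18P3 had 8 counts (control), 201 (Rg3) and 185 (TAM), while RPL18 had 9544, 8397 and 12447, so that this row was higher in both treated libraries where its parent gene was at -0.51 with Rg3 and 0.59 with TAM. RPS18P5 held 19633, 21835 and 19994 counts, more than RPS18 with 11543, 13127 and 13189. RPL13AP5 held 14717, 14741 and 19966 counts against 5865, 6571 and 6933 for RPL13A. Of the 293 pseudogene rows with at least 100 counts in a library, 41 held more counts in the control library than the gene they are named after. Whether such reads came from transcribed copies or from the parent mRNA was not tested.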
